A study of Mus musculus with 6 samples.

Results

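Dermal sheath (DS) cells were compared with dermal fibroblasts (DF) across all genes expressed in either population, with attention to functions other than contraction and extracellular matrix. Genes were kept when they reached at least 1 RPKM (reads scaled to transcript length and library depth) in at least 2 of the 4 DS and DF libraries, which left 13647 of the 24529 genes listed. Flow cytometry sorted both populations from dorsal skin taken from female CD1 mice on postnatal day 16, in early catagen, the phase in which the lower hair follicle regresses. Each had 2 biological replicates, and 2 libraries of dermal papilla (DP) cells from the same skin entered the fit, where they add to the estimate of the spread. No genetic alteration and no treatment is named for any group. The sources used here do not say which surface markers or reporters defined the sort, and any gene below could belong to that gate. From 6 ng of RNA per sample, cDNA was amplified before sequencing.

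The dermal sheath is a sleeve of mesenchymal cells around the hair follicle, with features of smooth muscle, and it holds progenitors that feed the sheath and the papilla. Dermal fibroblasts lie between the follicles, make most of the dermal matrix and exchange cytokines and chemokines with immune cells. Follicle mesenchyme and interfollicular dermis share an embryonic origin in the back skin, and both respond to the Wnt, Hedgehog, BMP and FGF signals that pass between skin epithelium and dermis.

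All levels below are RPKM after each library was rescaled by a median ratio, written as scaled RPKM. Differences are DS minus DF on the log2(scaled RPKM + 1) scale, which understates the change of genes with low values, each with the standard error (SE) of a fit in limma and a two-sided p adjusted over all 13647 genes. Calls required an adjusted p under 0.05 and a difference of at least 1 in either direction. By this rule 1185 genes, or 8.68% of those tested, were higher in DS and 1458, or 10.7%, were lower, together 19.4%. The split depended on the scaling. On the deposited scale 3066 genes were called higher and 881 lower, and with the summed RPKM of each library made equal 6412 were higher and 652 lower. These scalings raised the median difference of all genes from 0.02 to 0.57 and 0.98. The calls for higher genes lie inside the larger sets, since 1185 of the 1185 were called higher under both. Because both scalings move differences upward, this is no test of the higher calls. Of the 1458 lower genes, 879 were still called lower on the deposited scale and 646 with equal sums. In sorted bulk RNA, fewer cells of a type and less RNA per cell cannot be told apart.

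**Figure D1:**
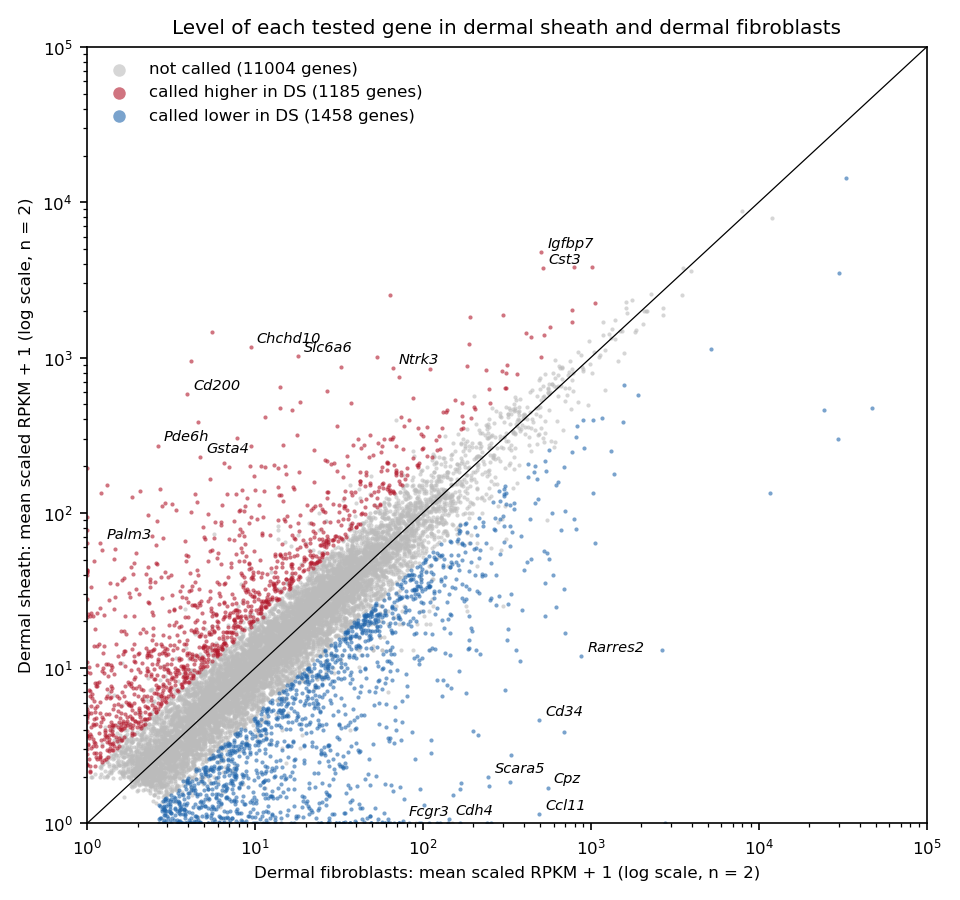
Mean scaled RPKM + 1 of every tested gene in dermal fibroblasts (horizontal) and dermal sheath (vertical), on log axes, with 1185 genes called higher in DS in red, 1458 called lower in blue and the rest in grey. The line marks equal levels, and named genes such as Cd200, Pde6h, Ccl11 and Fcgr3 lie far from it.

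The labels were checked against markers of each population. Of 12 tested DS markers 11 were higher in DS, and their summed level was 4330 and 4190 scaled RPKM in DS against 135 and 138 in DF. Of 16 tested fibroblast markers 14 were lower in DS. Both lists hold genes known for the population they mark. The markers of arrector pili muscle, the smooth muscle that raises the hair, were higher in DS for 7 of 10 tested members and lower for 2, with a summed level of 350 and 340 scaled RPKM in DS and 18.2 and 17.2 in DF. Most of that sum came from the smooth muscle actin Actg2, at 146 and 157 in DS and at 0.406 and 0.238 in DF, while the mature smooth muscle myosin Myh11 was at 4.13 and 3.63 in DS and at 0.856 and 0.749 in DF. This list and that of pericytes and vascular smooth muscle each share members with the DS list, Myh11 among them. Their counts are therefore not separate from that of the DS markers. The list of pericyte and vascular smooth muscle markers had 6 of 15 tested members lower in DS and 5 higher. Without DF replicate 1 these counts were 4 and 3. The sums were 266 and 263 in DS and 894 and 682 in DF. Ndufa4l2 gave most of the DF sum, at 790 and 588, and the pericyte gene Rgs5 was at 9.17 and 1.19 in DS and at 2.02 and 1.02 in DF. The part of such cells in the differences of smooth muscle genes below was not tested. Among the other markers, 9 of 13 tested leukocyte markers were lower in DS, with a summed level of 29.7 and 19.1 scaled RPKM in DS and 97.5 and 116 in DF. Cd207, which marks Langerhans cells, was listed at 0 in both DS libraries. Melanocyte markers were lower in DS for 4 of 7 tested members and higher for 1, with sums of 55.4 and 62.2 in DS and 65.5 and 76.9 in DF. None of 18 tested keratinocyte markers was called, and their sums were 102 and 243 in DS and 211 and 150 in DF. For endothelial cells, 2 of 7 tested markers were lower in DS and none was higher, against none lower and 1 higher without DS replicate 2. Adipocyte markers were higher for 2 of 6, a count of 0 without DS replicate 2 or either DF library, skeletal muscle markers were lower for 2 of 3, and no Schwann cell marker of 6 or erythroid marker of 4 was called.

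The genes furthest apart were near silence in 1 population and abundant in the other. Cd200, a surface glycoprotein that restrains myeloid cells, was at 685 and 480 scaled RPKM in the DS libraries and at 3.59 and 2.31 in DF. The difference of 7.20 (SE 0.26, adjusted p = 5.14e-05) was the largest increase among genes named by the rule in the methods. Chchd10, a protein of the mitochondrial intermembrane space, was at 964 and 1370 in DS against 4.90 and 11.9 in DF, a difference of 7.04 (SE 0.39, adjusted p = 0.000147). Pde6h, known as the inhibitory subunit of the cone photoreceptor phosphodiesterase, was at 271 and 268 in DS and at 1.44 and 1.82 in DF, a difference of 6.69 (SE 0.22, adjusted p = 4.94e-05). Its expression in skin mesenchyme is outside its textbook role. Pawr, a regulator of apoptosis and transcription, was at 144 and 130 in DS and at 0.911 and 1.2 in DF, a difference of 6.07 (SE 0.17, adjusted p = 4.27e-05). In each of these 4 genes both DS libraries were above both DF libraries, as the naming rule required. Of all tested genes, 33.8% were apart in that direction.

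Other genes with large increases had diverse functions. The membrane water channel Aqp1 (difference 5.32, SE 0.25), the BCL2 family member Bok (5.15, SE 0.31), the hypoxia-responsive transcription factor Epas1 (4.99, SE 0.16), the adhesion protein Mcam (5.39, SE 0.18) and the paralemmin Palm3 (5.75, SE 0.18) were all called higher in DS. The same held for the leucine-rich surface protein Lrrc15 (5.35, SE 0.30) and the protease Corin (5.07, SE 0.18), which activates natriuretic peptides. These 7 genes also had positive differences from DP, from 1.51 for Corin to 5.89 for Palm3, all called. Of the 13647 genes, 12.5% were called higher in DS than in DP and 8.07% lower. Differences from DF and DP share the DS libraries and are given side by side for that reason.

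Among the genes lower in DS, Ccl11, the eosinophil-attracting chemokine eotaxin, was at 0.209 and 0.0858 scaled RPKM in DS and at 516 and 470 in DF. Its difference of -8.75 (SE 0.16, adjusted p = 2.74e-05) was the furthest from 0 among the named genes. Cpz, a carboxypeptidase that binds Wnt proteins, was at 0.962 and 0.435 in DS and at 687 and 416 in DF, a difference of -8.32 (SE 0.29, adjusted p = 5.02e-05). The classical cadherin Cdh4 was at 0.0743 and 0.0491 in DS and at 160 and 125 in DF, a difference of -7.07 (SE 0.19, adjusted p = 3.94e-05). Scara5, a scavenger receptor for ferritin, was at 1.07 and 0.887 in DS against 262 and 225 in DF. In all of these the DS libraries were below the DF libraries, as the naming rule required. Of all tested genes, 31.7% were apart in that direction. Scara5 was also at 70.8 and 84.5 in DP, and the surface peptidase Dpp4 was at 177 and 149 in DP, 98.6 and 103 in DF and only 0.275 and 0.338 in DS. Greb1l is named by the same rule, but its DF libraries were at 15.9 and 287, and its call (adjusted p = 0.0406) was lost in 5 alternatives, among them without DF replicate 2 and without either DS replicate.

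**Figure D2:**
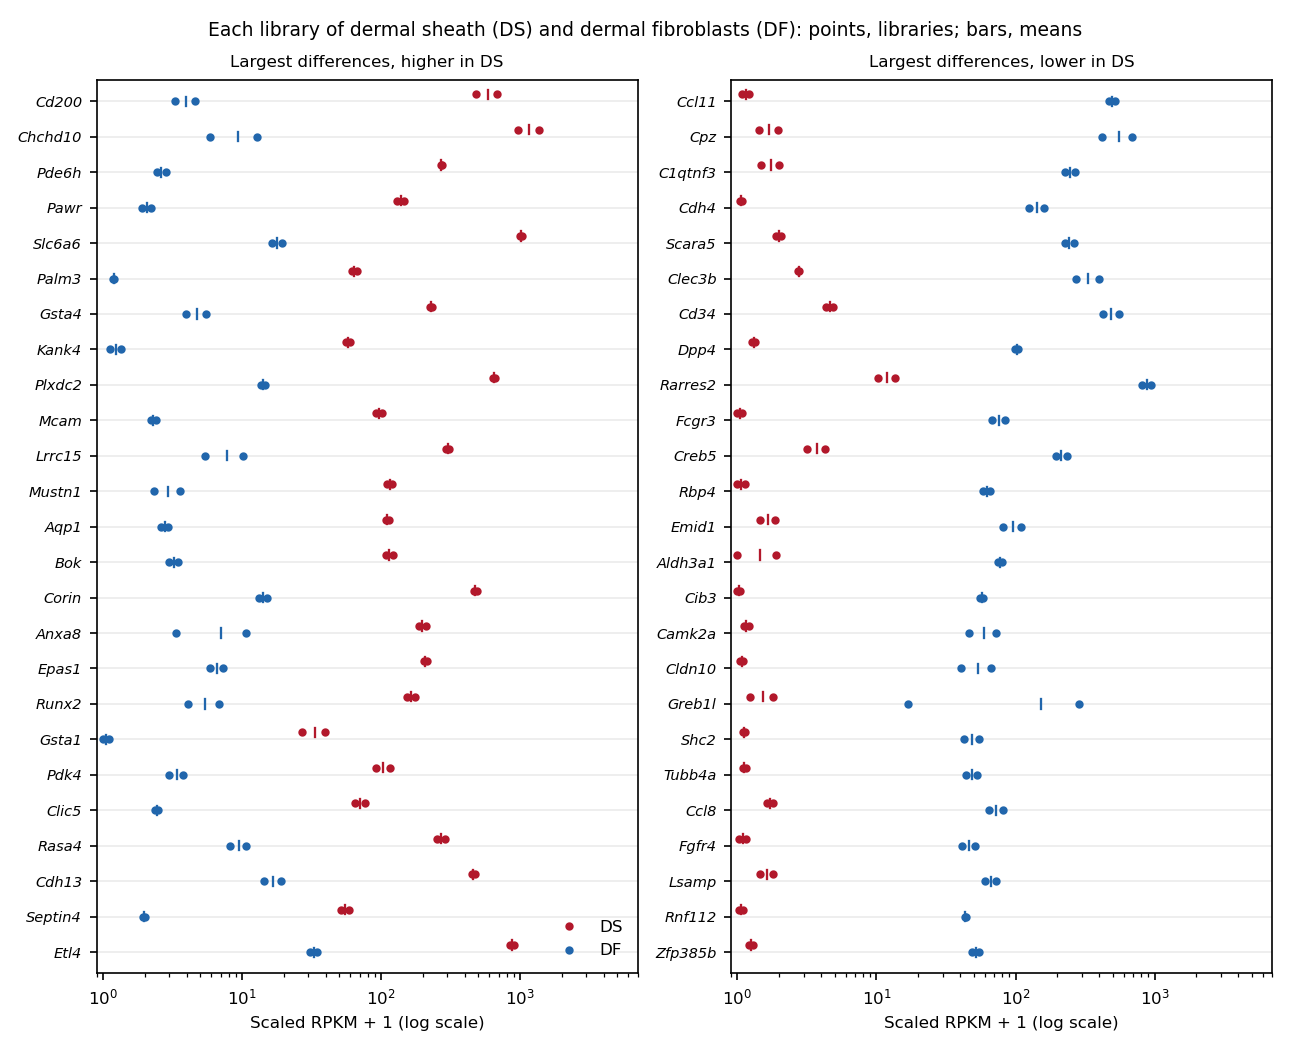
Scaled RPKM + 1, on a log axis, in each DS library (red) and DF library (blue) for the 25 genes with the largest called differences in each direction, ordered by difference from the top; bars mark means. In both panels the red and blue points of every gene are apart, as the naming rule required. The widest gap between libraries of a population is in Greb1l, at 15.9 and 287.

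Several of the most abundant transcripts also differed. Igfbp7, a secreted protein that binds insulin-like growth factors weakly, was at 4850 and 4710 scaled RPKM in DS and at 513 and 498 in DF, a difference of 3.24 (SE 0.18, adjusted p = 0.00014). Cst3, the secreted cysteine protease inhibitor cystatin C, was at 3630 and 3950 in DS against 555 and 475 in DF, a difference of 2.88 (SE 0.14). The iron store subunit Fth1 (1.92, SE 0.15), the calcium-binding S100a6 (2.28, SE 0.14) and the actin-sequestering peptide Tmsb4x (2.66, SE 0.16) were higher in DS as well. On the lower side stood the chemoattractant precursor Rarres2, at 12.6 and 9.20 in DS and at 942 and 808 in DF, a difference of -6.21 (SE 0.29, adjusted p = 9.85e-05). The stress-induced nuclear protein Nupr1 was lower by the same test (-1.82, SE 0.12), a call that was lost with equal sums.

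Few genes of the mitochondrial complexes and of the ribosome were called, and how many depended on the scaling. Of 81 tested subunits of oxidative phosphorylation, which make ATP in mitochondria, 5 were called higher (6.17%, below the 8.68% of all genes) and none lower, and the median difference was 0.36 against 0.02 for all genes, with 70 members positive. On the deposited scale 40 were higher, and 74 with equal sums. Among mitochondrial ribosomal proteins 1 of 78 was called, Mrps6, at 89.7 and 113 scaled RPKM in DS and at 7.36 and 6.71 in DF, a difference of 3.66 (SE 0.18, adjusted p = 0.000112). On the deposited scale 24 of the 78 were higher, and 59 with equal sums. Cytosolic ribosomal proteins had no called member of 79, with a median of 0.07, against 9 higher on the deposited scale and 63 with equal sums. Chchd10 was the only called gene of 35 for mitochondrial structure and import, a list with 14 higher on the deposited scale and 26 with equal sums.

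Single genes that steer fuel choice and phosphate transfer also differed. Pdk4, a kinase that shuts off pyruvate dehydrogenase and so keeps pyruvate out of the citric acid cycle, was at 115 and 90.7 in DS, 2.76 and 1.99 in DF and 4.74 and 5.02 in DP. Its difference from DF was 4.95 (SE 0.20, adjusted p = 6.78e-05). Pdk1, a kinase of the same family, was lower in DS by 1.55 (SE 0.20), a call lost with equal sums. In the glycolysis list 6 of 31 tested members were higher (19.4%) and 2 lower. The counts were 17 and 2 on the deposited scale, 19 and 0 with equal sums, and 3 and 3 without DS replicate 2. Gapdh was called at 775 and 797 in DS against 389 and 335 in DF (1.12, SE 0.22), but lost the call whenever a DS or DF library was left out. Ckb, the creatine kinase of brain and smooth muscle, was at 294 and 298 in DS and at 76.0 and 52.4 in DF (2.21, SE 0.20, adjusted p = 0.000785). The adenylate kinases Ak5 (2.71, SE 0.30) and Ak3 (1.09, SE 0.14) were higher too.

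Genes of cholesterol and other lipids differed in both directions. In the cholesterol list 9 of 31 tested members (29.0%) were higher in DS and 3 lower, with a median of 0.69. The lower share of 9.68% was below the 10.7% of all genes. The counts were 18 and 1 on the deposited scale and 21 and 1 with equal sums, but 5 and 2 without DF replicate 1 and 6 and 5 without DF replicate 2. The summed level of the list was lower in DS, at 433 and 465 scaled RPKM against 1020 and 925 in DF. Srebf2, the transcription factor that controls cholesterol synthesis, was at 20.8 and 24.9 scaled RPKM in DS against 10.6 and 9.08 in DF (1.14, SE 0.17). In the opposite direction, the lipid carrier Apoe was at 27.8 and 41.0 in DS, 526 and 533 in DF and 1070 and 1010 in DP, with a DS to DF difference of -3.93 (SE 0.19, adjusted p = 0.000115). The list of fatty acid synthesis and lipid handling had 3 of 31 tested members higher (9.68%, near the 8.68% of all genes) and 6 lower (19.4%). The counts turned to 8 and 2 on the deposited scale and 15 and 2 with equal sums, and were 2 and 3 without DF replicate 1. Scd1, which desaturates fatty acids, was at 1.42 and 4.89 in DS against 42.3 and 24.2 in DF (-3.13, SE 0.47, adjusted p = 0.005). Enpp2, the secreted enzyme autotaxin that makes lysophosphatidic acid, was lower by 3.87 (SE 0.16), and its receptor Lpar1 was at 21.1 and 18.1 in DS and at 157 and 123 in DF (-2.77, SE 0.18). Plin2, a coat protein of lipid droplets, was higher (1.39, SE 0.13).

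Glutathione enzymes differed in both directions between the populations. Gsta4, which conjugates the lipid peroxidation product hydroxynonenal, was at 230 and 225 scaled RPKM in DS and at 2.94 and 4.49 in DF (5.62, SE 0.21, adjusted p = 5.3e-05). Mgst3, a membrane-bound glutathione transferase, was at 64.8 and 73.3 against 4.18 and 3.79 (3.81, SE 0.16). Gsta1 was at 38.7 and 26.0 in DS and at 0 and 0.103 in DF, but it shares sequence with close relatives and its reads may be divided among them. Gstm1 was at 109 and 119 in DS against 494 and 428 in DF (-2.0, SE 0.15), a call lost with equal sums, and the metal-binding metallothioneins Mt1 (-3.30, SE 0.39) and Mt2 (-3.11, SE 0.21) were also lower in DS. Over the whole redox list 8 of 43 tested members were higher (18.6%) and 10 lower (23.3%), which became 16 and 7 on the deposited scale and 25 and 5 with equal sums.

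In the list of retinoid and aldehyde metabolism 10 of 27 tested members (37.0%) were lower in DS and 2 higher, with a median of -0.17 and 11 positive differences. Leaving out DF replicate 2 gave 10 and 4. The counts became 9 and 5 on the deposited scale and 8 and 10 with equal sums, where the balance turned. The retinol carrier Rbp4 was at 0.135 and 0 scaled RPKM in DS and at 65.0 and 57.0 in DF (-5.86, SE 0.20, adjusted p = 5.02e-05). Aldh1a1, which makes retinoic acid from retinaldehyde, was at 0.0482 and 0 in DS and at 37.3 and 29.3 in DF (-5.06, SE 0.21). Adh1, which can oxidise retinol, was lower by 3.86 (SE 0.22), and Rarb, a retinoic acid receptor, was at 0.935 and 0.0888 against 16.7 and 19.5 (-3.71, SE 0.44, adjusted p = 0.00212). Aldh3a1, an aldehyde dehydrogenase of barrier tissues, was at 0 and 0.881 in DS and at 78.8 and 73.9 in DF. Dhrs3, which reduces retinaldehyde back to retinol, was among those higher, at 199 and 231 in DS and at 29.7 and 21.7 in DF (3.03, SE 0.20, adjusted p = 0.000286). Rbp4, Aldh1a1 and Aldh3a1 were also below 1 scaled RPKM in both DP libraries.

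Genes of the secretory pathway, which carries new proteins through the endoplasmic reticulum and Golgi, were lower in DS for 17 of 46 tested members (37.0%, against 10.7% of all genes) and higher for 1, with a median of -0.48. This balance turned with the scaling, to 6 lower and 11 higher on the deposited scale and 4 and 16 with equal sums. Without DF replicate 1 the counts were 11 and 2, and without DF replicate 2 they were 20 and 0. Creb3l1, a transcription factor that drives secretory capacity for collagen, was at 56.2 and 52.2 scaled RPKM in DS and at 660 and 433 in DF (-3.28, SE 0.25, adjusted p = 0.000445). Kdelr3 and Kdelr2, receptors that return proteins to the endoplasmic reticulum, were lower by 2.61 (SE 0.20) and 2.21 (SE 0.22), and these 3 calls held under both scalings. The vesicle coat gene Sec24d was lower by 1.99 (SE 0.22), a call lost with equal sums. The chaperones Hspa5 (0.71, adjusted p = 0.0149) and Hsp90b1 (0.63, adjusted p = 0.0289) had positive differences that did not reach the minimum of 1. In the lysosome list the protease Ctsh was at 13.4 and 14.7 in DS and at 350 and 279 in DF (-4.38, SE 0.21), while the autophagosome protein Map1lc3b was higher (1.39, SE 0.12).

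**Figure D3:**
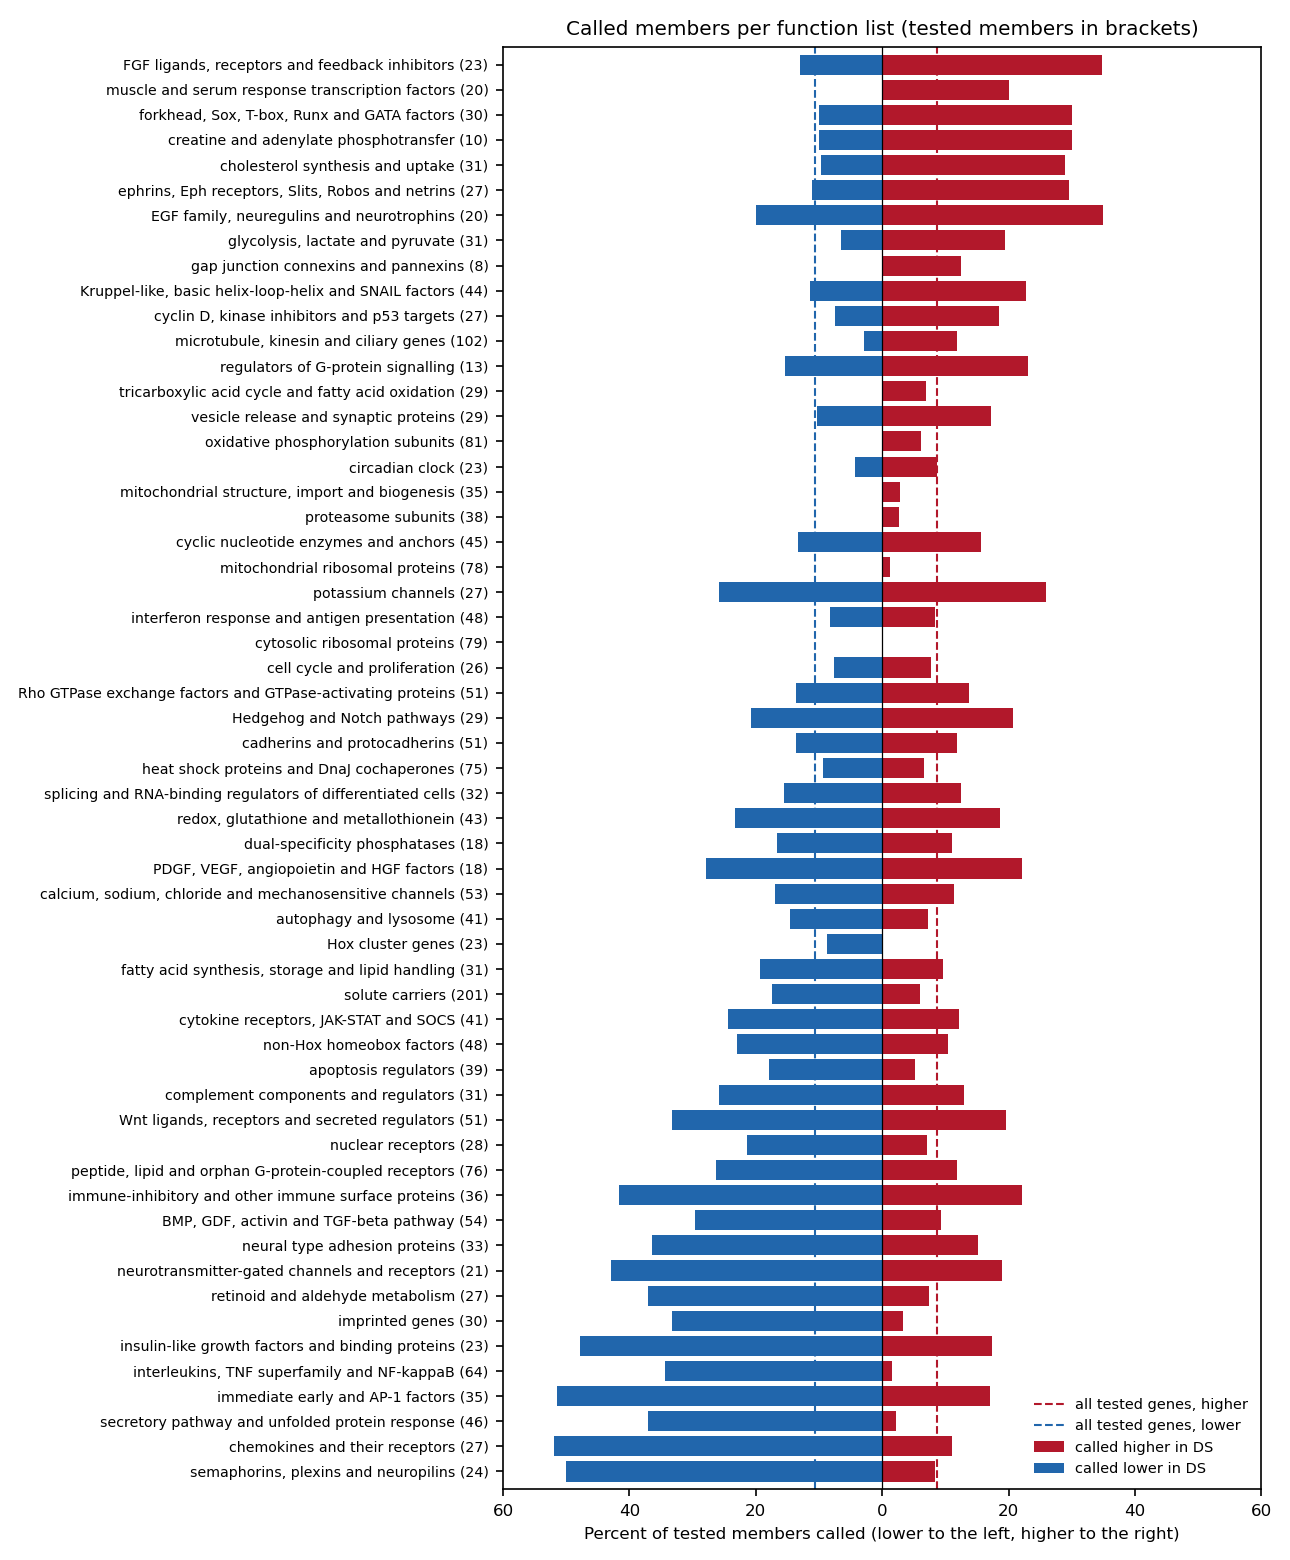
Percent of tested members called higher in DS (red, to the right) and lower in DS (blue, to the left) for each of the 57 function lists, with tested members in brackets; dashed lines mark the 8.68% and 10.7% of all tested genes. Lists are ordered by percent higher minus percent lower, and at the foot of the plot stand semaphorins, chemokines, secretory genes and immediate early factors.

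A transporter of a small osmolyte had the largest increase among the solute carriers described here. Slc6a6, the taurine transporter, was at 1000 and 1030 scaled RPKM in DS, 15.5 and 18.4 in DF and 288 and 232 in DP (DS minus DF 5.83, SE 0.16, adjusted p = 3.94e-05). Slc5a3, which imports myo-inositol, was at 38.8 and 39.3 in DS against 2.23 and 2.12 in DF (3.66, SE 0.17). Slco2a1, a prostaglandin transporter, was at 108 and 95.1 against 9.62 and 5.59 (3.61, SE 0.26). Over all carriers 12 of 201 tested members were higher (5.97%) and 35 lower (17.4%), with a median of -0.15, while their summed level was 4080 and 4030 in DS and 3820 and 3250 in DF. The balance turned to 26 and 24 on the deposited scale and 76 and 18 with equal sums. The fatty acid transporter Slc27a6 was at 0 and 0.0642 in DS and at 30.2 and 22.8 in DF (-4.72, SE 0.22), and the neutral amino acid carrier Slc1a4 was lower by 3.24 (SE 0.20).

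Channels and transmitter receptors differed in both directions. Of 27 tested potassium channel genes 7 were higher and 7 lower, or 25.9% each, which became 9 and 4 on the deposited scale and 10 and 1 with equal sums. Leaving out DF replicate 1 gave 6 and 3, and leaving out DF replicate 2 gave 7 and 3. Kcnn2, a calcium-activated potassium channel, was higher (2.10, SE 0.24), and so was the voltage-gated Kcnc4 (2.04, SE 0.30). Calcium, sodium, chloride and mechanosensitive channels had 6 of 53 tested members higher (11.3%) and 9 lower (17.0%), against 8.68% and 10.7% of all genes. The counts were 11 and 7 on the deposited scale, 21 and 5 with equal sums and 3 and 9 without DF replicate 1. Clic5, of the chloride intracellular channel family, was at 75.3 and 63.7 scaled RPKM in DS and at 1.35 and 1.5 in DF (4.85, SE 0.18, adjusted p = 5.77e-05). The calcium sensor Stim1, which opens store-operated channels, was at 19.5 and 18.9 in DS against 74.0 and 91.6 in DF (-2.04, SE 0.15), a call lost with equal sums. Among AMPA-type glutamate receptor subunits, Gria3 was at 88.2 and 74.0 in DS and at 16.8 and 13.4 in DF (2.35, SE 0.19), whereas Gria4 was at 0.253 and 0.0569 in DS and at 28.1 and 27.5 in DF (-4.65, SE 0.19). The alpha-adrenergic receptor Adra1a was at 0.0915 and 0.0768 in DS against 17.3 and 15.6 in DF (-4.01, SE 0.18, adjusted p = 8.8e-05).

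Cyclic nucleotide genes had 7 of 45 tested members higher (15.6%) and 6 lower (13.3%), or 15 and 2 on the deposited scale and 27 and 2 with equal sums. Without DS replicate 2 they were 7 and 3. Beside Pde6h, the cyclic GMP-dependent kinase Prkg1, which relaxes smooth muscle, was at 49.8 and 46.3 scaled RPKM in DS, 3.08 and 2.70 in DF and 3.62 and 3.11 in DP (DS minus DF 3.66, SE 0.17, adjusted p = 0.0001). Pde5a, which degrades cyclic GMP, was at 35.8 and 25.1 in DS and at 2.48 and 2.65 in DF (3.12, SE 0.28), and its DP level of 51.5 and 32.2 overlapped with DS. The cyclic AMP-specific Pde8b was higher (4.09, SE 0.27), while its paralog Pde8a was lower (-2.20, SE 0.18). The adenylyl cyclases Adcy2 (1.75, SE 0.19) and Adcy7 (-3.05, SE 0.21) also differed in opposite directions.

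Of 76 tested receptors for peptides and lipids that couple to G proteins 9 were higher (11.8%) and 20 lower (26.3%), which became 17 and 13 on the deposited scale and 24 and 10 with equal sums. F2r, the thrombin receptor, was at 187 and 200 scaled RPKM in DS and at 14.4 and 11.3 in DF (3.82, SE 0.28, adjusted p = 0.000398). S1pr3, a sphingosine 1-phosphate receptor, was at 24.7 and 31.2 against 0.305 and 0.628 (4.30, SE 0.31). Ptger3, a prostaglandin E2 receptor, was at 74.2 and 73.6 against 6.63 and 8.05 (3.17, SE 0.19), and its DP level of 46.2 and 62.8 gave no call between DS and DP. Lgr5, a receptor for R-spondins, was lower in DS (-3.04, SE 0.29).

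Axon guidance genes differed in both directions. In the list of ephrins, Eph receptors, Slits, Robos and netrins 8 of 27 tested members were higher (29.6%) and 3 lower, while among semaphorins, plexins and neuropilins 12 of 24 (50.0%) were lower and 2 higher. The first balance was 12 and 1 on the deposited scale and 17 and 1 with equal sums, but 5 and 4 without DF replicate 2. The difference between both families was not tested. The second balance held on the deposited scale, at 9 lower and 2 higher, and turned to 4 and 5 with equal sums. Slit2, a secreted repellent, was at 897 and 792 scaled RPKM in DS and at 104 and 114 in DF (2.94, SE 0.12, adjusted p = 7.24e-05), with its relative Slit3 (1.70, SE 0.13) and the receptor Robo2 (1.13, SE 0.13) also higher. The netrin Ntn4, found in basement membranes, was at 101 and 110 in DS, 23.6 and 24.2 in DF and 1.14 and 0.889 in DP. Sema3d was at 207 and 188 in DS against 11.8 and 8.03 in DF (4.21, SE 0.22), and Sema3b ran the other way, at 7.28 and 9.88 against 188 and 136 (-4.08, SE 0.25). Nrp1, a co-receptor for class 3 semaphorins and vascular endothelial growth factor, was lower by 3.00 (SE 0.26). Cadherins and protocadherins had 6 of 51 tested members higher (11.8%) and 7 lower (13.7%), near the 8.68% and 10.7% of all genes. The counts were 9 and 7 on the deposited scale and 15 and 6 with equal sums. Among them Cdh13, anchored to the membrane by a lipid, was at 449 and 473 in DS against 18.0 and 13.4 in DF (4.81, SE 0.19). The mesenchymal Cdh11 was higher (2.40, SE 0.19), and Cdh4, as above, was nearly absent from DS.

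Among growth factor receptors, both neurotrophin receptors Ntrk3 and Ntrk2 were higher in DS. Ntrk3, the receptor for neurotrophin 3, was at 939 and 761 scaled RPKM in DS, 56.5 and 73.3 in DF and 4.48 and 5.37 in DP (DS minus DF 3.69, SE 0.19, adjusted p = 0.000127). Ntrk2, the receptor for brain-derived neurotrophic factor, was at 209 and 193 in DS against 11.7 and 12.3 in DF (3.96, SE 0.14). Pdgfra, a platelet-derived growth factor receptor of dermal lineages, was at 542 and 529 in DS and at 149 and 159 in DF (1.79, SE 0.11), whereas Pdgfrb differed by only 0.15 (SE 0.15, adjusted p = 0.515). Vegfa, the vascular growth factor, was lower in DS (-2.38, SE 0.16).

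In the insulin-like growth factor list 11 of 23 tested members were lower in DS (47.8%) and 4 higher, and 10 were lower under each of the other scalings, against 5 and 8 higher. The ligand Igf2 was at 6.67 and 2.54 scaled RPKM in DS and at 67.8 and 66.6 in DF (-3.71, SE 0.62, adjusted p = 0.00773), a call lost without either DF library. Igfbp3 was at 21.3 and 20.1 in DS, 575 and 483 in DF and 3130 and 3300 in DP (DS minus DF -4.60, SE 0.13, adjusted p = 4.39e-05). Pappa, a protease that frees the ligand by cutting binding proteins, was at 0.117 and 0.172 in DS and at 20.2 and 19.5 in DF (-4.19, SE 0.15). Igfbp4, a substrate of that protease, had the reverse pattern at 327 and 301 in DS against 14.8 and 19 in DF (4.15, SE 0.16, adjusted p = 6.15e-05), as did Igfbp7 above.

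The FGF list had 8 of 23 tested members higher in DS (34.8%) and 3 lower, or 13 and 3 on the deposited scale, 15 and 3 with equal sums and 5 and 3 without DS replicate 1. Etv5 and Spry1, genes induced by FGF signalling, were higher by 3.22 (SE 0.21) and 1.92 (SE 0.23). Etv5 was at 25.5 and 31.8 scaled RPKM in DS, 1.79 and 2.59 in DF and 37.1 and 31.0 in DP. Among the receptors, Fgfr4 was at 0.154 and 0.0253 in DS and at 50.0 and 40.4 in DF (-5.40, SE 0.21) and Fgfr2 was lower by 2.42 (SE 0.13), whereas Fgfr1 differed by -0.13 (SE 0.13, adjusted p = 0.501). The Hedgehog and Notch list had 6 of 29 tested members higher and 6 lower, or 20.7% each, with a median of 0.1. The counts were 12 and 4 on the deposited scale and 15 and 3 with equal sums. Of the Hedgehog genes, Gli1 (2.67, SE 0.32) and Ptch1 (1.63, SE 0.22) were higher, and the inhibitor Hhip was lower (-2.79, SE 0.30). Gli1 was at 24.7 and 24.1 in DS against 1.83 and 4.60 in DF. Wnt genes had 17 of 51 tested members lower (33.3%) and 10 higher, a balance that turned to 12 and 14 on the deposited scale and 11 and 17 with equal sums. Without DF replicate 2 the counts were 15 and 6. Lower in DS by every scaling were the feedback inhibitors Axin2 (-3.98, SE 0.25) and Apcdd1 (-5.07, SE 0.35), both transcribed in response to Wnt signals. Axin2 was at 2.99 and 1.52 in DS and at 53.7 and 44.7 in DF. In the BMP and TGF-beta list 16 of 54 were lower (29.6%) and 5 higher, a balance that turned to 11 and 14 on the deposited scale and 8 and 23 with equal sums. The ligand Bmp4 (-4.31, SE 0.26) and its secreted inhibitor Nog (3.70, SE 0.30) differed in opposite directions.

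**Figure D4:**
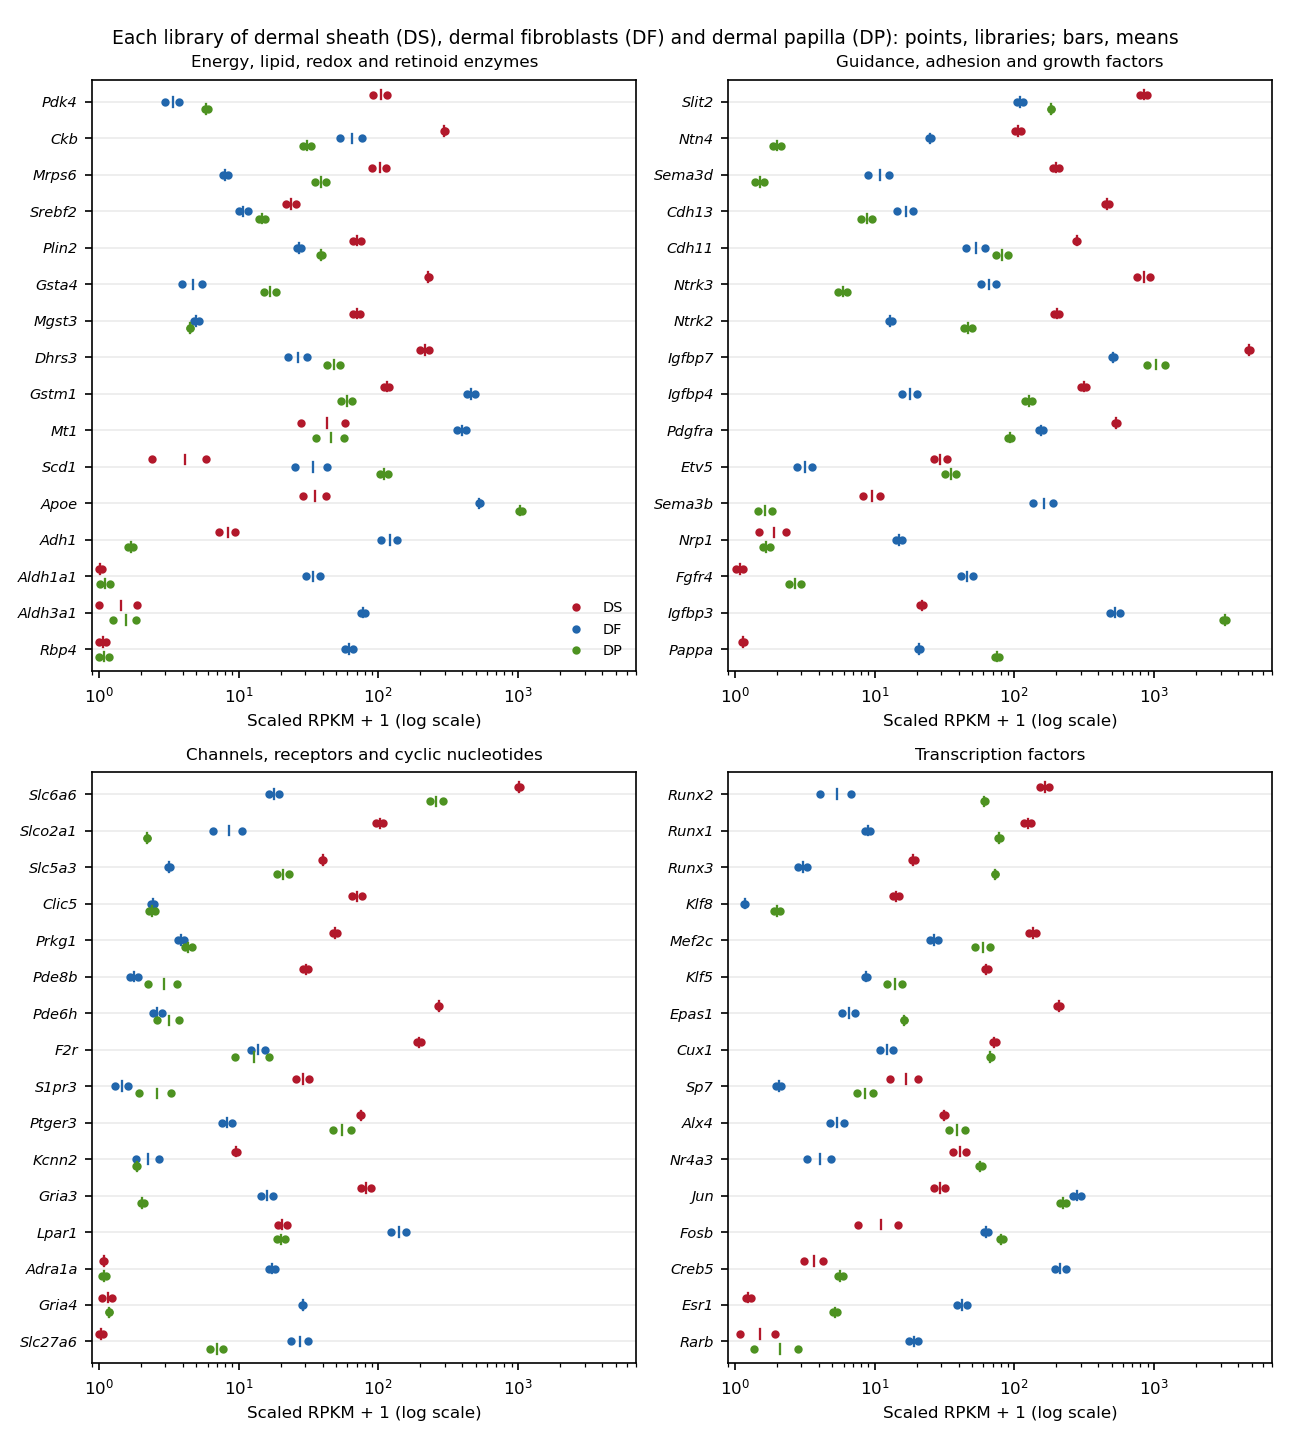
Scaled RPKM + 1, on a log axis, in each library of DS (red), DF (blue) and DP (green) for 64 genes in 4 functional groups, chosen for display after their values were seen; bars mark means. DS and DF points are apart in every row, while DP lies near DS for some genes (Etv5, Cux1, Alx4) and near DF or beyond it for others (Jun, Igfbp3).

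Chemokine and interleukin genes were called lower in DS more often than higher. Genes of interferon response and antigen presentation were not, with 4 of 48 tested members higher and 4 lower, or 8.33% each. Their counts were 8 and 3 on the deposited scale and 16 and 2 with equal sums. Of 27 tested chemokine genes 14 (51.9%) were lower in DS and 3 higher, with a median of -1.25, and 13 were lower on the deposited scale and 9 with equal sums, against 4 and 5 higher. Ccl8 was at 0.642 and 0.802 scaled RPKM in DS and at 63.8 and 79.9 in DF (-5.40, SE 0.21, adjusted p = 5.99e-05). Ccl19, which guides dendritic cells and lymphocytes, was at 10.9 and 13.1 in DS against 401 and 311 in DF (-4.77, SE 0.19). The monocyte attractant Ccl2 was listed at 0 in both DS libraries and was at 14.1 and 12.5 in DF. Cxcr4, a chemokine receptor, was higher in DS, at 28.3 and 16.7 against 2.39 and 2.20 (2.79, SE 0.27), while its ligand Cxcl12 differed by 0.22 (SE 0.20, adjusted p = 0.464).

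Interleukin and tumour necrosis factor genes had 22 of 64 tested members lower (34.4%) and 1 higher, or 15 lower and 9 higher on the deposited scale and 15 and 15 with equal sums. The decoy receptor Il1r2 was at 2.20 and 1.01 scaled RPKM in DS and at 98.1 and 79.5 in DF (-5.14, SE 0.34, adjusted p = 0.000275). The receptor subunits Il31ra (-4.25, SE 0.21), Il13ra1 (-3.79, SE 0.19) and Il6ra (-3.65, SE 0.28) were lower as well. Il33, an alarm cytokine, was higher in DS (2.13, SE 0.28). Complement genes differed in both directions, with 8 of 31 tested members lower (25.8%) and 4 higher (12.9%). This became 7 and 6 on the deposited scale and 5 and 12 with equal sums, where the balance turned. The central component C3 was at 0 and 0.168 in DS and at 33.7 and 19.1 in DF (-4.61, SE 0.30), while the inhibitor Cd59a was higher in DS (2.50, SE 0.19) and the inhibitor Cd55 was lower (-1.67, SE 0.23, a call lost with equal sums). Fcgr3, a receptor for immunoglobulin G, was at 0.083 and 0 in DS and at 83.3 and 66.4 in DF (-6.18, SE 0.20). Leukocyte RNA also differed, as given above. In DF the pan-leukocyte gene Ptprc was at 0.453 and 0.754, the macrophage genes C1qc at 11.2 and 14.2 and Csf1r at 16 and 10.7, and in DS Ptprc was at 0.0157 and 0.0322. The part of leukocytes in the immune differences was not tested.

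Transcription factors differed in both directions. All 3 Runx factors, which direct skeletal and blood lineages, were higher in DS. Runx2 was at 153 and 175 scaled RPKM in DS, 3.05 and 5.79 in DF and 59.3 and 60.8 in DP (DS minus DF 4.97, SE 0.26, adjusted p = 0.000127). Runx1 was at 117 and 130 in DS against 8.36 and 7.59 in DF (3.79, SE 0.13, adjusted p = 5.02e-05), and Runx3 was at 17.5 and 18.5 against 1.84 and 2.30 (2.63, SE 0.16) but highest in DP, at 72.0 and 71.9. Sp7, which acts with Runx2 in bone formation, was higher by 2.99 (SE 0.28). Over the list of forkhead, Sox, T-box, Runx and GATA factors 9 of 30 tested members were higher (30.0%) and 3 lower. The counts were 12 and 1 on the deposited scale and 17 and 1 with equal sums, and those lower were 5 without DS replicate 2 and 1 without DF replicate 1.

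Mef2c, which activates muscle genes, was at 143 and 127 scaled RPKM in DS against 24.1 and 27.6 in DF (2.34, SE 0.17). The Kruppel-like factors Klf5 (2.86, SE 0.17) and Klf8 (3.59, SE 0.18) and the homeodomain factors Alx4 (2.55, SE 0.20) and Cux1 (2.56, SE 0.15) were also higher. Over the list of homeodomain factors other than Hox genes, 11 of 48 tested members were lower in DS (22.9%) and 5 higher, with a median of -0.35. This balance turned to 4 lower and 10 higher on the deposited scale and 4 and 16 with equal sums. Hox genes, which record position along the body, had none of 23 tested members higher and 2 lower, against 7 higher and 1 lower on the deposited scale and 14 and 1 with equal sums. Steroid and related nuclear receptors were higher for 2 of 28 and lower for 6 (21.4%), which turned to 5 and 4 on the deposited scale and 15 and 3 with equal sums. The estrogen receptor Esr1 was at 0.196 and 0.310 in DS and at 44.9 and 37.7 in DF (-5.07, SE 0.19, adjusted p = 5.17e-05). Creb5, a cyclic AMP-response factor, was at 3.26 and 2.15 in DS and at 232 and 194 in DF (-5.86, SE 0.21).

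Immediate early and AP-1 factors, which respond to growth factors and stress, were lower in DS for 18 of 35 tested members (51.4%) and higher for 6, with a median of -1.27. On the deposited scale the counts were 11 lower and 8 higher, and with equal sums 8 and 13, where the balance turned. Jun was at 31.0 and 25.5 scaled RPKM in DS, 301 and 263 in DF and 211 and 233 in DP (DS minus DF -3.28, SE 0.15, adjusted p = 0.0001). Fosb was at 6.60 and 13.7 in DS and at 60.1 and 64.4 in DF (-2.58, SE 0.31). Nr4a3, also an immediate early gene, was in the other direction at 35.2 and 44.5 against 3.90 and 2.29 (3.34, SE 0.24). Heat shock genes, counted with their DnaJ cochaperones, had 5 of 75 tested members higher (6.67%) and 7 lower (9.33%). Both shares were below the 8.68% and 10.7% of all genes. The counts were 17 and 4 on the deposited scale and 42 and 3 with equal sums. Among heat shock genes the stress-inducible Hspa1a was lower in DS (-2.73, SE 0.22), although its near-identical copy Hspa1b can take some of its reads. The small heat shock proteins Hspb1 (2.56, SE 0.34), Hspb2 (2.68, SE 0.34) and Cryab (1.77, SE 0.17), of which Cryab and Hspb2 are abundant in muscle, were higher. Cryab was at 379 and 337 in DS, 118 and 91.7 in DF and 5.28 and 6.07 in DP. Cell cycle genes had 2 of 26 tested members higher and 2 lower, near the share of all genes, or 5 and 1 on the deposited scale and 7 and 0 with equal sums. Leaving out a library gave 1 to 3 higher and 1 to 2 lower.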

How the data were processed

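Sorted DS, DF and DP populations had 2 libraries each. The authors deposited RPKM for every gene and library, which are not counts and were not treated as such. Per the submitters' processing notes, Salmon 1.9.0, DESeq2 1.28.1 and GRCm39 were used, without a role or order. Read totals, annotation, strand and multi-mapping rules have no record here, and no counting interval or limit for a value at 0 was set.

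Each of the 6 libraries was divided by its median ratio to the geometric mean of all (0.632 and 0.794 for DF, 1.09 and 1.12 for DS, 1.29 and 1.26 for DP). Genes with a deposited RPKM of at least 1 in 2 of the 4 DS and DF libraries were tested on log2(scaled RPKM + 1) in limma 3.58.1 under R 4.3.3, with a mean per population, eBayes with a trend (2.77 prior and 3 residual degrees of freedom) and Benjamini-Hochberg adjustment over 13647 genes. Calls needed an adjusted p under 0.05 with a difference of at least 1 either way. A design of 2 against 2 libraries cannot give an exact permutation p below 0.333, so p-values rest on spread shared across genes. On simulated data with the observed spread, 200 of 13647 genes were changed, a smaller share than was called here. Recovery by adjusted p alone, without the minimum difference, was 36% at a log2 difference of 1, 79.6% at 2 and 94.8% at 4. False calls were 4.97% there, a share that need not hold for the calls made here.

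The members and the 57 function lists were chosen with earlier results of these data known. Members wrongly matched to 2 channel lists by name were taken out by identity after the values were seen. Lists are described by counts and medians beside those of all genes. Genes were named as the 25 largest and 10 most abundant called genes per direction (at least 5 scaled RPKM in the higher population, no overlap, no contraction, matrix or small RNA genes), at most 8 called members and 3 not called per list, and all markers; a few genes that this rule picks are not reported here. Alternatives were other scalings, pseudocount, filters, fits and leaving out each library.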

Additional observations from a re-analysis of the deposited data

How the results depend on the processing

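Each setting was changed alone. Calls numbered 1185 higher and 1458 lower, and 3066 and 881 on the deposited scale, 6412 and 652 with equal sums, and 1875 and 2008 without a fold minimum. Leaving out 1 DS or DF library gave 1028 to 1096 higher and 1197 to 1392 lower. The replicate block gave 1167 and 1436. Same-numbered DS and DF libraries had deviations correlated at -0.0815, so numbers are not taken to pair samples. The other alternatives (pseudocount, filters, no trend, only DS and DF libraries) kept both counts within 1.5 times. Of 154 called genes named in the text, 141 kept the call in all 14 alternatives. This count is no test of the calls, because the naming rule favours large differences without overlap. Dropping the fold minimum cannot lose a call, and both other scalings move differences upward, away from losing a higher call. With equal sums 9 lost it, all lower in DS, namely Cd55, Gstm1, Hspa1b, Meg3, Nupr1, Pdk1, Rian, Sec24d and Stim1, and the other 4, Gapdh, Greb1l, Igf2 and Myh11, lost it with a library left out, Greb1l also with no filter and with the block. No named gene changed direction. The cause was not tested. Depth is not known here, so values below about 1 scaled RPKM carry an unstated counting error.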

Other observations

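Gene groups outside signalling and metabolism held further called genes. Microtubule, kinesin and ciliary genes had 12 of 102 tested members higher in DS (11.8%) and 3 lower (2.94%), against 8.68% and 10.7% of all genes, with a median of 0.30. The counts were 37 and 1 on the deposited scale and 68 and 1 with equal sums, and 11 and 5 without DF replicate 2. Stmn2, a tubulin-binding protein best known from growing axons, was at 74.0 and 61 scaled RPKM in DS and at 1.69 and 1.95 in DF, a difference of 4.60 (SE 0.19, adjusted p = 6.99e-05). The tubulin isotype Tubb4a was at 0.0924 and 0.153 in DS against 51.7 and 43.3 in DF, a difference of -5.43 (SE 0.18). Adhesion proteins known from neurons had 12 of 33 tested members lower (36.4%) and 5 higher, or 7 lower and 6 higher on the deposited scale and 6 and 10 with equal sums. Lsamp (-5.36, SE 0.24) and Nrcam (-4.36, SE 0.41) were lower, while Igsf3 was higher (2.73, SE 0.16). The neuronal splicing regulator Nova1 was at 1.03 and 0.571 in DS and at 56.3 and 60.9 in DF (-5.06, SE 0.22), and Mbnl1, a splicing regulator of differentiated muscle, was higher in DS (1.65, SE 0.14).

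Imprinted genes had 10 of 30 tested members lower in DS (33.3%) and 1 higher, counts that became 8 and 4 on the deposited scale and 4 and 12 with equal sums, where the balance turned. The noncoding RNAs Meg3, Rian and H19 were lower by 1.73 (SE 0.15), 2.05 (SE 0.13) and 2.44 (SE 0.22), and for Meg3 and Rian the call was lost with equal sums. Rian was at 160 and 140 scaled RPKM in DS, 605 and 641 in DF and 15.6 and 14.8 in DP. Regulators of vesicle release had 5 of 29 tested members higher (17.2%) and 3 lower (10.3%), against 8.68% and 10.7% of all genes. The lower share was thus near that of all genes. Counts were 12 and 1 on the deposited scale, 16 and 1 with equal sums, 3 and 1 without DF replicate 1 and 3 and 2 without DS replicate 2. In this list Syt13 (2.62, SE 0.20) was higher and Stxbp6 (-4.47, SE 0.18) lower.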
